A study of Gallus gallus with 24 samples.

Results

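At 9 wk of age, abdominal fat of cockerels of a fat line (FL) was compared with that of a lean line (LL) on 4 of the 24 spotted cDNA arrays of the study, chosen by the age in the labels. The lines are broiler chickens bred apart for high or low abdominal fat weight over 7 generations, raised under one standard protocol with no other treatment. Each array held 1 FL and 1 LL bird of one age, and the other 20 arrays covered 1, 3, 5, 7 and 11 wk. Replicates 1 and 3 carried FL in Alexa Fluor 555 and LL in Alexa Fluor 647, and replicates 2 and 4 carried them the other way round. The study's design text calls the birds biological replicates, and each p-value rests on variation among birds together with variation among arrays. A line difference in this bulk tissue cannot be told apart from a difference in the share of a cell type, since fewer cells of a type and less RNA per cell look alike. The deposited ratios hold no levels, so the labelled tissue could not be checked against the level of adipocyte genes.

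In birds most fatty acids are made in the liver and carried to adipose tissue in lipoproteins, where adipocytes take them up, esterify them and store them as triglyceride around a perilipin-coated droplet. Release begins with adipose triglyceride lipase, encoded by PNPLA2, which the small protein encoded by G0S2 inhibits. As a depot grows, its adipocytes enlarge within a scaffold of collagens, fibronectin and matricellular proteins that stromal cells and adipocytes secrete.

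Values are the deposited log2 ratios of the 2 lines, over 15027 features, 6428 of them with a gene name. Their sign convention is not stated. FL is the likely numerator because the titles name it first, and a gene called higher is one with a ratio above 0. With LL as numerator all signs would be the opposite. The alternative reading takes each value as the 647 channel over the 555 channel and turns the 2 arrays with LL in 647 before fitting, and is called the dye-turned reading. Its signs are FL over LL, and would be the opposite if the 555 channel was the numerator. At 9 wk arrays of one dye orientation correlated across spots (r = 0.314 for replicates 1 and 3, 0.494 for replicates 2 and 4), and all 4 pairs of opposite orientation correlated negatively, from -0.437 to -0.177. With arrays of the other ages, each 9 wk array correlated on average at 0.153 to 0.328 in the same orientation. In the opposite orientation the averages were -0.261 to -0.107. Because of the negative correlations the direction is not settled, and both readings are given. Values given in a row of 4 follow the order of replicates 1 to 4, so the first and the third come from arrays with FL in 555.

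No feature passed the test of a line difference at 9 wk in the ratios as deposited. With limma, fitted over all 24 arrays with a common dye term, 0 of 15027 features (0%) had an adjusted p under 0.05, and the smallest adjusted p was 0.603. At an unadjusted p under 0.05 there were 999 features (6.65%), of which 568 (3.78%) were higher and 431 (2.87%) lower, where 751 are expected by chance. The dye term common to all ages was itself called for 5043 of 15027 features. In the dye-turned reading that component becomes part of the 9 wk ratio. The median standard error (SE) of a ratio was 0.107. In simulated ratios of the same spread, limma recovered 92 of 100 features shifted by 1 and 62 of 100 shifted by 0.5 at 9 wk. The simulation used independent normal noise and a dye effect common to all ages. It held no trend over the print and no outlying single arrays, so these rates cannot be carried over to the data. The ratio lay above 0 on all 4 arrays for 999 features (6.65%) and below 0 on all 4 for 684 (4.55%). One sign on all 4 arrays was thus found for 1683 features (11.2%) as deposited, beside 4093 (27.2%) once turned by the dyes. Whether such agreement in sign exceeds chance was not tested. In the dye-turned reading 944 features (6.28%) were called, 474 higher (3.15%) and 470 lower (3.13%). On the higher side the named genes of smallest p were SYT17 at 0.63 (adjusted p 3.7e-05), CNOT8 at 0.71 and ABCG1 at 0.64. On the lower side CDS2 led, at -0.81 (adjusted p 6.68e-05). Most genes described below from that reading are lower ones, although the 2 directions were called about equally often.

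Genes of the extracellular matrix lay mostly above 0 in the ratios as deposited. Of 46 measured genes on the list 36 were above 0, or 78.3%, beside 55.8% of all features, and their median was 0.069 beside 0.016. None was called. At an unadjusted p under 0.05, 8 were higher and 0 lower, beside 3.78% and 2.87% of all features. On all 4 arrays 7 were above 0 and 0 below, beside 6.65% and 4.55% of all features. The list's median on the 4 arrays was 0.25, -0.033, 0.051 and 0.0069, so replicate 1 was highest and replicate 2 below 0. Its fitted median was above 0 at the other ages too, from 0.0050 at 5 wk to 0.12 at 7 wk, so the direction was not particular to 9 wk. In the dye-turned reading the direction was the opposite, with 13 of 46 above 0 and a median of -0.093. The list was drawn up with results of these arrays known and its direction is not independent evidence.

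Of the matrix genes with one sign on every array, COL5A1, a chain of the collagen that helps set fibril width, stood at 0.68, 0.65, 0.31 and 0.77. All 4 arrays agreed in sign and replicate 3 was lowest. Its fitted ratio was 0.56 (SE 0.189, p 0.00742, adjusted p 0.702), and it was -0.0086 when the ratios were turned by the dyes. POSTN, which encodes periostin, a matricellular protein that binds collagen, stood at 0.90, 0.79, 0.082 and 1.08. Replicate 3 was again lowest and the other arrays lay close together, and 16 of 20 arrays of the other ages were above 0. The fitted ratio of POSTN was 0.67 (SE 0.249, adjusted p 0.742), and its mean over the 4 arrays, 0.71, was among the 3 highest of all named genes. THBS2, the matricellular thrombospondin 2, stood at 0.75, 0.43, 0.15 and 0.97, with the same array lowest. Its fit was 0.56 (SE 0.244, adjusted p 0.746), and 10 of 20 arrays of the other ages were above 0. COL18A1, the source of endostatin, stood at 0.24, 0.23, 0.022 and 0.27, fitted at 0.18 (SE 0.0856). Replicate 3 was lowest in each of these 4 genes.

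The other 4 matrix genes with an unadjusted p under 0.05 were below 0 on at least 1 array. LUM, a small proteoglycan that binds collagen fibrils, stood at 0.45, -0.029, 0.56 and 0.61 and was fitted at 0.39 (SE 0.151). FN1, which encodes fibronectin and is the mean of 6 spots, stood at 0.29, -0.057, 0.18 and 0.45 and was fitted at 0.19 (SE 0.0814). In both genes replicate 2 alone lay below 0. SPARC, a collagen-binding matricellular protein, stood at 0.93, -0.075, 0.45 and -0.066, positive with FL in 555 and close to 0 with FL in 647. COL4A2, a chain of basement membrane collagen, stood at 0.62, 0.0068, -0.053 and 0.37, with an adjusted p of 0.746 like the other 3.

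Other matrix genes turned sign with the dye orientation. Of the 46 measured, 16 had both arrays with FL in 647 below both others (26.8% of all features did) and 7 above (27.7%). COL6A1, a chain of microfibrillar collagen VI, stood at 1.15, -1.10, 0.52 and -1.10. Both arrays with FL in 555 were far above 0 and both with FL in 647 far below, so the fitted ratio was 0.0068 (SE 0.188) as deposited and -1.004 (SE 0.16, adjusted p 0.00195) in the dye-turned reading. DCN, which encodes the fibril-binding proteoglycan decorin, stood at 1.11, -1.04, 0.39 and -0.90, and COL1A2, a chain of fibrillar collagen I, at 1.17, -0.45, 1.00 and -0.70. These 2 genes stood at -0.89 (adjusted p 0.014) and -0.86 (adjusted p 0.0177) once turned. COL6A2, PRELP and SERPINH1, the last a collagen chaperone, completed the 6 matrix genes called lower in that reading, in which 0 were called higher, beside 3.13% of all features called lower. Some of these genes were also split by orientation at the other ages: COL1A2 had a median of 0.68 with FL in 555 and -0.65 with FL in 647 over 10 arrays each, and for COL6A1 the medians were 0.46 and -0.34. PRELP alternated at 9 wk, at 0.36, -0.15, 0.39 and -0.10, while its medians at the other ages were -0.0053 and 0.042.

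**Figure D1:**
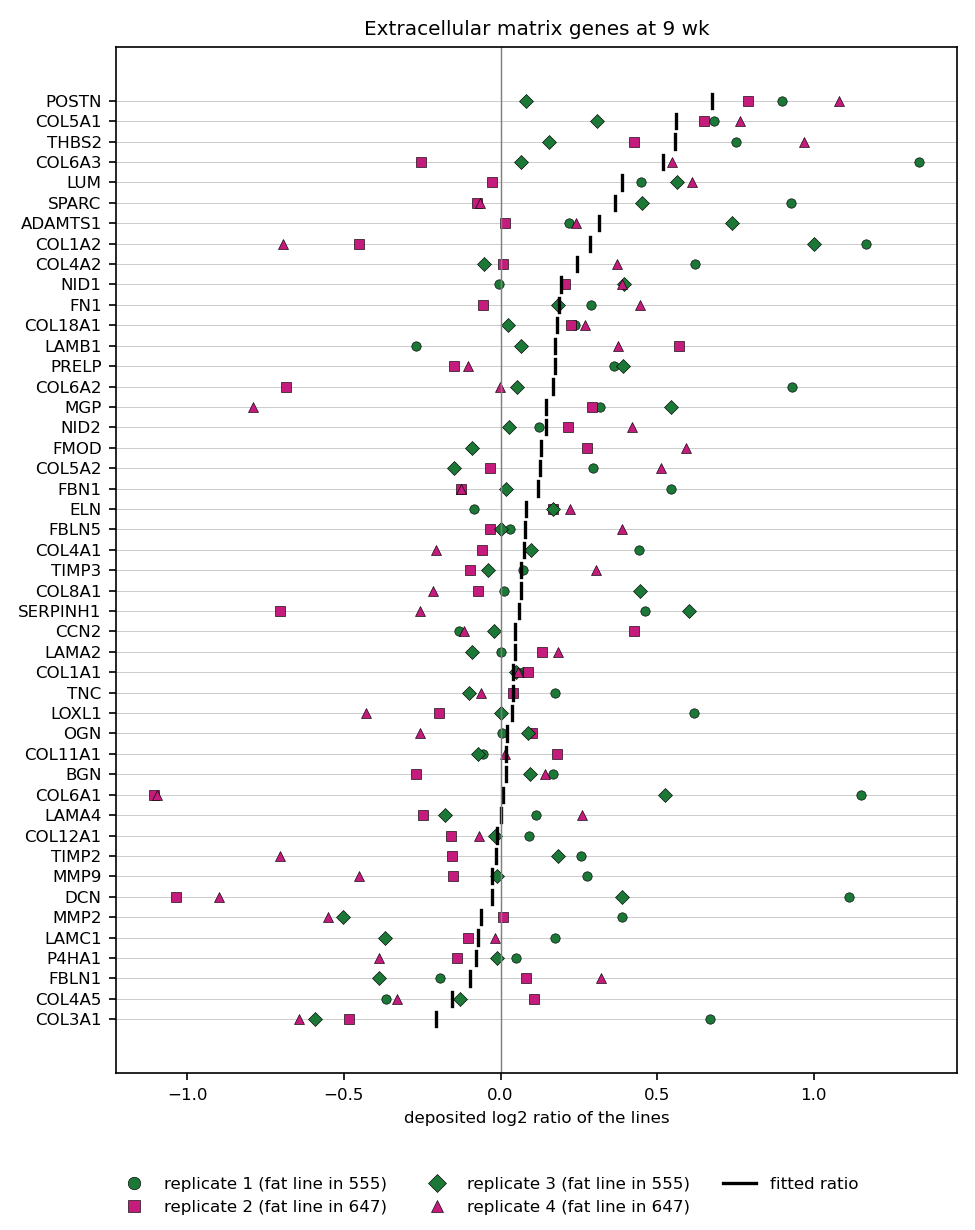
Deposited log2 ratio of the lines for the 46 measured extracellular matrix genes at 9 wk, sorted by fitted ratio, with 1 point per array (green, fat line in 555; magenta, fat line in 647) and a black bar for the limma fit. POSTN, COL5A1 and THBS2 have all 4 points above 0, whereas COL6A1, DCN and COL1A2 have the green points above 0 and the magenta points below.

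Several genes of fat storage and release were split by dye orientation at 9 wk. PNPLA2, adipose triglyceride lipase, stood at 0.99, -1.79, 1.86 and -1.14. The 2 arrays with FL in 555 were high and the 2 with FL in 647 low, with no overlap, and the fitted ratio was 0.14 (SE 0.287, adjusted p 0.967) as deposited. In the dye-turned reading PNPLA2 was lower in FL, with a log2 ratio of -1.43 (SE 0.177, adjusted p 0.000325). The arrays of the other ages split less widely: with FL in 555 PNPLA2 ran from -0.33 to 0.52 (median 0.10) and with FL in 647 from -1.12 to 0.34 (median -0.55). Within single ages the orientations were also apart without overlap at 3 wk (0.389, -0.659, 0.0973 and -0.0884). They were apart too at 7 wk (0.36, -0.51, 0.13 and -0.60) and at 11 wk (0.044, -1.12, 0.11 and -0.74). G0S2, the inhibitor of that lipase, stood at 0.24, -1.72, 0.54 and -2.45. It was fitted at -0.63 (SE 0.332, p 0.0698) as deposited and at -0.996 (SE 0.335, adjusted p 0.078) once turned. The mean of G0S2 over the 4 arrays, -0.85, was among the 3 lowest of all named genes. The orientations of G0S2 were also apart without overlap, in the same direction, at 3, 5, 7 and 11 wk, and overlapped at 1 wk. Its values at 11 wk were 0.74, -0.40, -0.072 and -1.48. Lipase and inhibitor lay on the same side of 0 on each array of 9 wk. MGLL, which splits the last fatty acid from glycerol, went the other way at 9 wk, at 0.29, 0.33, -0.11 and 0.89, and was fitted at 0.29 (SE 0.0983, p 0.00779, adjusted p 0.703). ABHD12, another monoacylglycerol hydrolase, stood at 0.28, -0.58, -0.15 and -0.72. In all, 7 lipolysis genes were measured, 3 above 0, with a median of -0.07. The list's median on the arrays was lower with FL in 647 at every age, without overlap, so that split was not particular to 9 wk. Over the other ages' arrays it was 0.095 with FL in 555 and -0.12 with FL in 647. In the dye-turned reading PNPLA2 was the 1 lipolysis gene called lower and 0 were called higher, beside 3.13% and 3.15% of all features.

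PPARG, the nuclear receptor that directs adipocyte differentiation, stood at 0.24, -1.24, 0.65 and -0.92. Its fit was -0.24 (SE 0.252, adjusted p 0.903) as deposited and -0.66 (SE 0.185, adjusted p 0.0369) in the dye-turned reading. PLIN1, the perilipin that coats the droplet, stood at 0.30, -0.63, 0.62 and -0.52, and at -0.49 (SE 0.117, adjusted p 0.0179) once turned. For both genes, each array with FL in 555 was above 0 and each with FL in 647 below. FABP4, the fatty acid carrier of adipocytes, split likewise at 0.51, -0.77, 0.25 and -0.81, but its turned ratio of -0.50 was not called (SE 0.321, adjusted p 0.391). CEBPA, a partner factor of PPARG, stood at -0.24, -0.62, 0.15 and -0.21 and was fitted at -0.24 (SE 0.11, p 0.0396). ADIPOQ, the adipokine adiponectin, stood at 0.041, -0.29, 0.23 and 0.06, near 0 in both readings (0.029 and -0.13). Of the 11 measured adipocyte markers 7 had both arrays with FL in 647 below both others, where 26.8% of all features did, and 1 had them above, where 27.7% did. The list's median on the 4 arrays was 0.28, -0.41, 0.25 and -0.21. At the other ages that median was 0.039 over the 10 arrays with FL in 555 and 0.0056 over the 10 with FL in 647, and 4 genes (PLIN1, PPARG, PNPLA2 and SCD) were called lower at 9 wk in the dye-turned reading and 0 higher, beside 3.13% and 3.15% of all features. PPARG was split the same way at 11 wk, over a wider range, at 1.02, -0.39, 0.44 and -1.1. It was split so at 3 wk too, over a narrower range, at 0.342, -0.0255, 0.0243 and -0.09. At 1 wk both its arrays with FL in 647 lay above both others.

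Triglyceride storage and uptake genes followed the same split for 11 of 18 measured genes, with 1 the other way, beside 26.8% and 27.7% of all features. DGAT2, which adds the last acyl chain of triglyceride, stood at 0.37, -0.30, 0.86 and -0.98, and at -0.52 (SE 0.156, adjusted p 0.0483) once turned. With PLIN1, 2 of 18 were called lower in that reading and 0 higher, beside 3.13% and 3.15% of all features. VLDLR, the receptor through which cells take up very low density lipoprotein, stood at -0.16, -1.12, 0.13 and -1.10. Both arrays with FL in 647 were low and the other 2 near 0, which left a fitted ratio of -0.51 (SE 0.149, p 0.00271, adjusted p 0.603) as deposited and -0.42 (adjusted p 0.128) turned. FABP3 stood at -0.041, -1.15, 0.80 and -1.79. SLC27A4, a fatty acid transporter, was the list's 1 gene above 0 on all 4 arrays, at 0.18, 0.12, 0.17 and 0.059. LPL, the lipase that frees fatty acids from lipoproteins, was not measured.

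Fatty acid synthesis genes had a median of 0.00 as deposited, with 13 of 27 above 0, 1 at an unadjusted p under 0.05 higher and 1 lower. Over all features 3.78% were higher and 2.87% lower at that p, so these counts are near the shares over all features. FADS1, a fatty acid desaturase, was the higher one, at 0.18, 0.12, 0.32 and 0.14, with all 4 arrays above 0 (fit 0.19, SE 0.0691, adjusted p 0.737). ELOVL1, an elongase of very long chains, was the lower one, at -0.022, -0.27, -0.26 and -0.39 (fit -0.20, SE 0.0802, adjusted p 0.746). FASN, fatty acid synthase, stood at 0.29, -0.21, 0.44 and 0.039 (fit 0.17, SE 0.102), and ACACA, the carboxylase before it, at 0.14, -0.062, 0.24 and 0.30 (fit 0.097, SE 0.091). Neither was called in either reading. SCD, which desaturates stearate, stood at 0.49, -0.41, 0.11 and -0.70, and ACSL1, which activates fatty acids, at 0.80, -1.70, 0.88 and -0.90. Both changed sign with the dyes, and the dye-turned ratios were -0.44 (adjusted p 0.0348) for SCD and -1.04 (adjusted p 0.0474) for ACSL1. With HACD3, 3 of 27 were called lower in that reading and 0 higher, beside 3.13% and 3.15% of all features. THRSP, a regulator of lipogenesis, stood at 0.21, -0.83, 0.25 and -1.19, with -0.28 (SE 0.194) as deposited and -0.52 (adjusted p 0.156) turned.

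**Figure D2:**
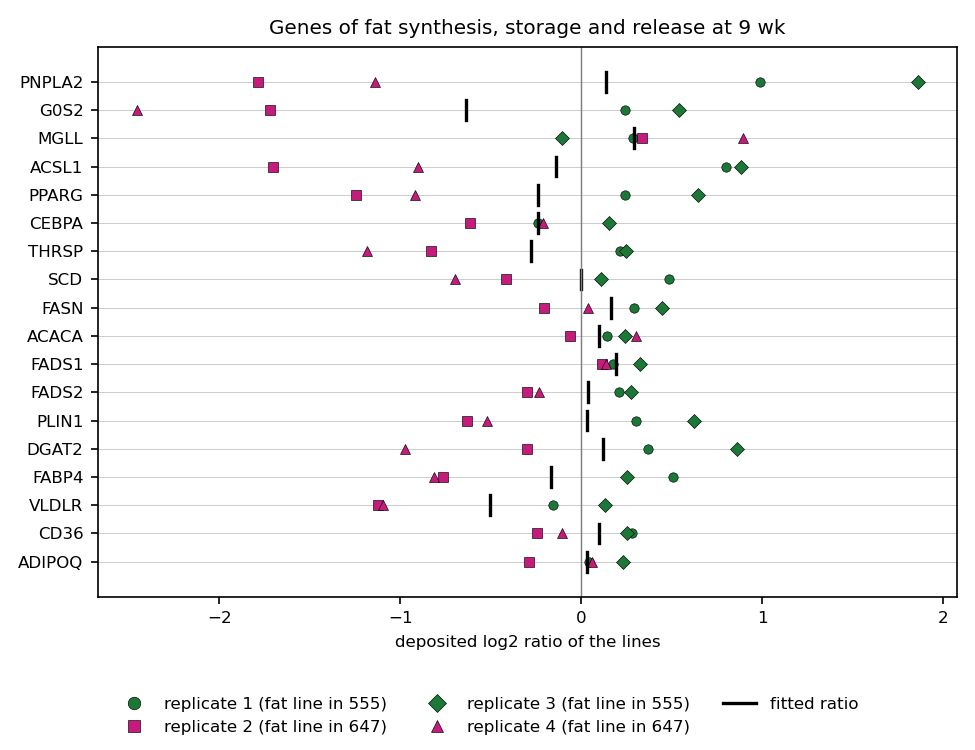
Deposited log2 ratio of the lines at 9 wk for 18 genes of fat synthesis, storage and release, with 1 point per array (green, fat line in 555; magenta, fat line in 647) and a black bar for the limma fit. For PNPLA2, ACSL1, PPARG, PLIN1 and DGAT2 the green points lie above 0 and the magenta points below, while MGLL and FADS1 do not split this way.

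The split was tested against the other ages in the dye-turned reading, as the 9 wk ratio minus the mean of the other 5 ages. Of 15027 features 2 passed, PNPLA2 at -1.14 (SE 0.191, adjusted p 0.0472) and CDS2 at -0.75 (SE 0.0962, adjusted p 0.00169), both named here after their values were seen. CDS2, which makes the CDP-diacylglycerol used for phosphatidylinositol and cardiolipin, stood at 0.57, -1.23, 0.71 and -0.70 at 9 wk. On the 20 arrays of the other ages it stayed between -0.58 and 0.16. There its orientations were apart in the same direction at 5 wk and at 11 wk (0.161, -0.205, -0.0222 and -0.577). At 1 wk they were apart in the opposite direction. For PLIN1 the difference was -0.49 (adjusted p 0.147), for SCD -0.49 (0.15), for PPARG -0.53 (0.306) and for FABP4 -0.026 (0.988), none of which passed. IDH3A, a subunit of the citrate cycle's isocitrate dehydrogenase, missed the threshold at -0.42 (adjusted p 0.0528) and stood at 0.38, -0.63, 0.42 and -0.65.

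Probes for one gene were compared to see which component repeats between clones at 9 wk. Over 2336 spots of 1066 genes with several clones, the intraclass correlation between clones of a gene was 0.0484 for the component common to the 4 arrays and 0.152 for the one that alternates with the dyes. At each of the other 5 ages the common component had the higher value, from 0.0939 to 0.159, beside 0.00227 to 0.0913 for the alternating one. Between copies of one clone (1004 spots of 472 clones) the values were close at 9 wk, 0.0456 for the common and 0.0565 for the alternating component, and at 5 wk the alternating one was the higher, at 0.227 beside 0.0275. The common component at 9 wk also repeated most between neighbouring spots of the print, with r = 0.353 beside 0.0746 to 0.268 at the other ages. The spot names behind these values were chosen because clones of one gene then correlated better, so agreement between clones of a gene is not independent evidence. These are descriptions across spots, which share arrays, and whether the alternating component at 9 wk is a line difference or a dye effect was not tested.

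**Figure D3:**
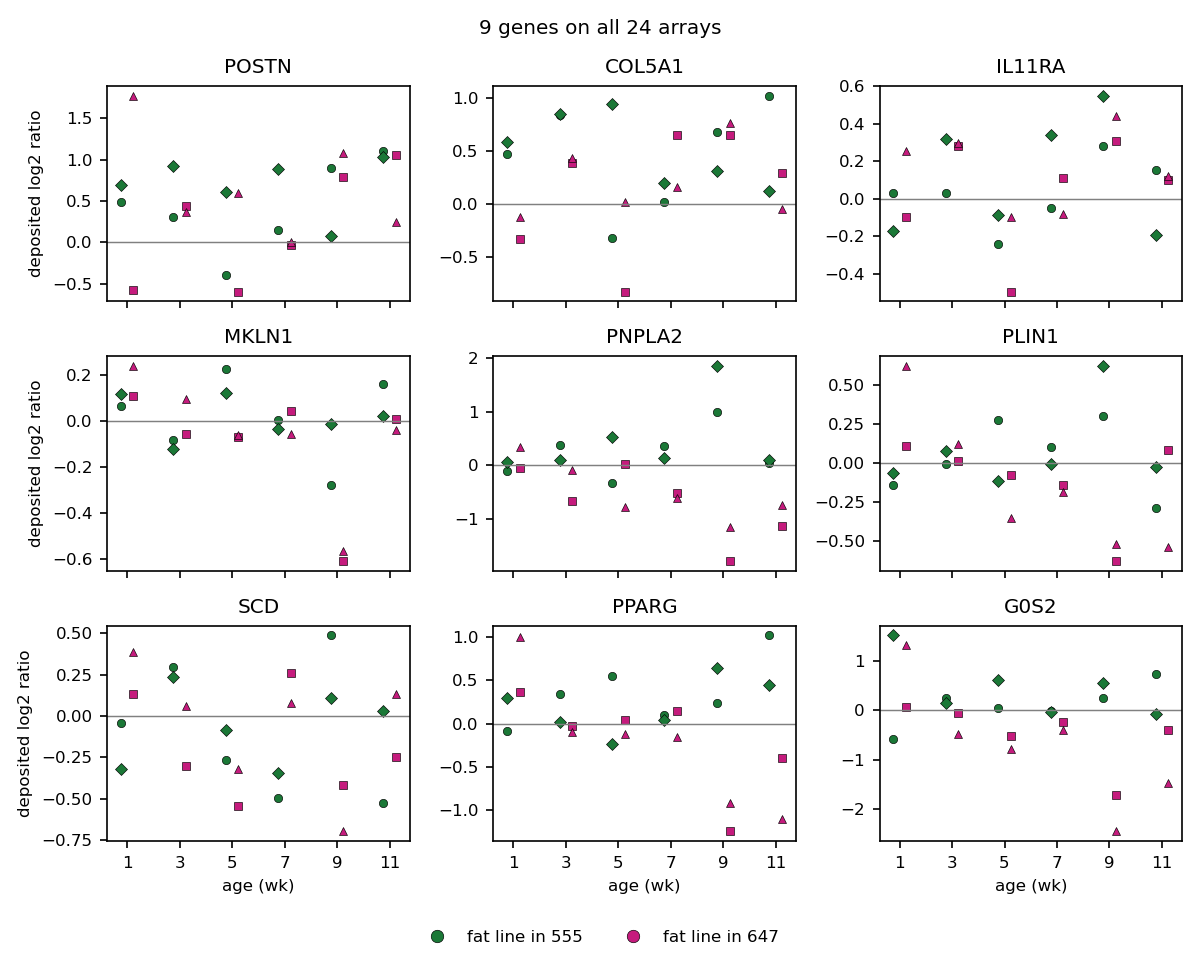
Deposited log2 ratio of 9 genes on all 24 arrays against age in wk, with 1 point per array (green, fat line in 555; magenta, fat line in 647; circle, square, diamond and triangle for replicates 1 to 4). PNPLA2 at 9 wk spans -1.79 to 1.86, wider than at the other ages, and IL11RA and MKLN1 have their 4 points of 9 wk on one side of 0.

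Among genes of one sign on all 4 arrays, the smallest p on the higher side belonged to IL11RA, the receptor subunit for interleukin 11, at 0.28, 0.31, 0.55 and 0.44. Its fitted ratio was 0.39 (SE 0.0886, p 0.000266, adjusted p 0.603), with 11 of 20 arrays of the other ages above 0. All 4 arrays lay between 0.28 and 0.55. ECSCR, a surface protein of endothelial cells, stood at 0.097, 0.38, 0.70 and 0.28 (fit 0.35, SE 0.0922). The list of endothelial markers did not share its direction, with 11 of 23 above 0 and a median of -0.025. PECAM1, of that list, stood at 0.12, -0.23, -1.77 and -0.090 (fit -0.51, SE 0.267), with replicate 3 far below the rest. HEBP2, a heme-binding protein, stood at 0.37, 0.15, 0.21 and 1.18 (fit 0.39, SE 0.107), where replicate 4 alone was far above the rest. PM20D1, an enzyme that in mice joins fatty acids to amino acids, stood at 0.55, 0.19, 0.48 and 0.067 (fit 0.40, SE 0.111). Here the 2 arrays with FL in 555 were the higher ones. The tetraspanin CD81 (mean of 3 spots) stood at 0.36, 0.14, 0.63 and 0.14, and the kinase CDC42BPA, which acts on actomyosin, at 0.43, 0.23, 0.87 and 0.30. The other 6 of the 12 genes were EIF3A, BCL2, NONO, DYNC1H1, SPECC1L and GLUL, fitted between 0.23 and 0.31. They include a translation initiation factor (EIF3A), an inhibitor of apoptosis (BCL2), the heavy chain of cytoplasmic dynein (DYNC1H1) and glutamine synthetase (GLUL). GLUL stood at 0.029, 0.52, 0.043 and 0.53, close to 0 where FL was in 555. With the median of the 7 by 7 surrounding spots removed, most of these 12 fits were closer to 0. NONO alone of the 12 then had an unadjusted p above 0.05, moving from 0.25 to 0.12 (p 0.133). IL11RA stood at 0.27 (p 0.00191) in that setting.

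On the lower side MKLN1, which encodes muskelin, stood at -0.28, -0.61, -0.012 and -0.56. The fitted ratio was -0.34 (SE 0.0773, p 0.000278, adjusted p 0.603), and replicate 3 was close to 0. SQRDL, the mitochondrial enzyme that oxidises sulfide, stood at -0.29, -0.44, -0.29 and -0.50, fitted at -0.37 (SE 0.0866). Its arrays lay within a narrow range. RAB30, a GTPase of the Golgi, stood at -0.52, -0.22, -1.45 and -0.31 (fit -0.64, SE 0.165), with replicate 3 far below the rest. STAR, which moves cholesterol into mitochondria, stood at -0.39, -0.27, -0.08 and -0.25 (fit -0.27, SE 0.0827). NOS1AP, an adaptor of neuronal nitric oxide synthase, stood at -0.35, -0.38, -0.13 and -0.33. TLCD1, a protein that shapes membrane lipids, stood at -0.059, -0.92, -0.42 and -1.04 (fit -0.55, SE 0.175), lower where FL was in 647. The remaining genes of the 12 were MAP7D1, ERN2, PCNT, FBXL8, DHRS11 and DLX6, fitted between -0.56 and -0.18. With the median of the surrounding spots removed, all 12 fits were closer to 0. DLX6 alone of the 12 then had an unadjusted p above 0.05, moving from -0.18 to -0.056 (p 0.37). In the dye-turned reading 1 of these 24 genes was called, ERN2, a sensor of the unfolded protein response, at 0.54 (adjusted p 0.0252), and that value rested on replicate 1, at -1.26 beside -0.022, -0.21 and -0.11 on the others. With a dye term for each age, 14 features were called at 9 wk, 3 of them named: MKLN1 at -0.37 (adjusted p 0.0421), FBXL8, an F-box protein, at -0.40 (adjusted p 0.041) and the transcription factor SALL1 at 0.42 (adjusted p 0.041). SALL1 was not of one sign, at -0.12, 0.80, -0.038 and 1.06, and lay above 0 only where FL was in 647.

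**Figure D4:**
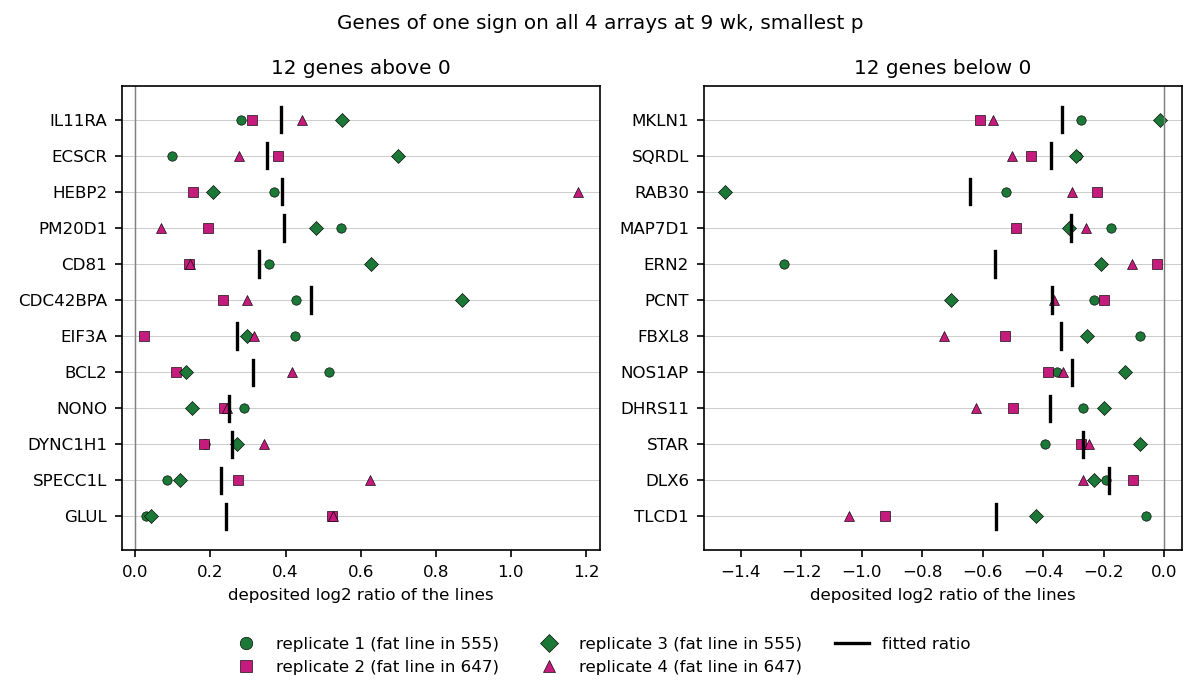
Deposited log2 ratio of the lines at 9 wk for the 12 genes above 0 and the 12 below 0 on all 4 arrays with the smallest p, with 1 point per array (green, fat line in 555; magenta, fat line in 647) and a black bar for the limma fit. The x axes of the panels differ. IL11RA, NONO and SQRDL have close points, while HEBP2, RAB30 and ERN2 have 1 array far from the rest.

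Some of the widest mean ratios came from 1 array. TMEM9, a lysosomal membrane protein, stood at -3.44, 0.020, -0.20 and -0.0064, and PKN2, a protein kinase, at 0.14, 2.38, 0.22 and -0.00038. IL2RA, the alpha chain of the interleukin 2 receptor, stood at -0.037, 0.15, -0.070 and 2.74. In each a single array carried the value and none was called as deposited (adjusted p 0.603, 0.694 and 0.753), while TMEM9 was called in the dye-turned reading at 1.46 (adjusted p 0.02). CLNS1A, a chaperone of spliceosome assembly, stood at 0.24, -0.83, -2.70 and -0.59 (fit -0.93, SE 0.297, adjusted p 0.666). GPR183, an oxysterol receptor of immune cells, stood at 1.43, -0.076, 0.69 and 0.42 (fit 0.63, SE 0.238, adjusted p 0.746). At the other ages its fitted ratio ran from 0.021 at 5 wk to 0.98 at 3 wk, with a mean of 0.56, and 16 of 20 arrays were above 0. The 9 wk ratio of GPR183 was -0.57 (SE 0.259, adjusted p 0.197) in the dye-turned reading. DIO2, which activates thyroid hormone, stood at 0.18, 0.11, -0.11 and 0.42 (fit 0.13, SE 0.0896).

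Ribosomal protein genes had, of the 30 lists examined, the largest share of members whose arrays with FL in 647 both lay below the other 2. Of 45 measured genes 30 had both arrays with FL in 647 below both others (26.8% of all features did), and 3 the reverse (27.7%), and the list's median was 0.26, -0.31, 0.27 and -0.41. RPL8 stood at 0.57, -1.09, 0.72 and -1.02, and RPL6 at 0.42, -0.61, 1.37 and -0.49. The fitted median of the list was -0.044, with 20 of 45 above 0, while at the other ages it lay between 0.025 and 0.16. At an unadjusted p under 0.05, 0 were higher and 2 lower (RPL21 at -0.40 and RPLP1 at -0.21), beside 3.78% and 2.87% of all features. On all 4 arrays 4 genes of the list were above 0 and 1 below. RPL17, the gene above 0 with the smallest p, stood at 0.47, 0.0022, 0.99 and 0.22 (fit 0.41, SE 0.2025, p 0.0558). In the dye-turned reading 5 genes of the list were called lower and 0 higher, beside 3.13% and 3.15% of all features. Over the other ages' arrays the list's median was 0.30 with FL in 555 and -0.053 with FL in 647, so the split was present there too.

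Genes of mitochondrial respiration had a median of -0.046, with 18 of 42 above 0, 0 higher and 2 lower at an unadjusted p under 0.05. Over all features 3.78% were higher and 2.87% lower at that p. On all 4 arrays 2 genes of the list were above 0 and 2 below. ATP5O, the gene above 0 with the smallest p, stood at 0.15, 0.067, 0.37 and 0.26 (fit 0.21, SE 0.106, adjusted p 0.753). UQCRQ, a subunit of respiratory complex III, stood at -0.12, -0.31, -0.66 and -0.45, all below 0 (fit -0.38, SE 0.119, adjusted p 0.658). UQCRC1, of the same complex, stood at -0.044, -0.24, -0.18 and -0.79 (fit -0.24, SE 0.102, adjusted p 0.746). In fatty acid oxidation 12 of 26 were above 0. HADHA, of the mitochondrial trifunctional protein, stood at -0.63, -0.21, -0.80 and 0.23 (fit -0.42, SE 0.164), and ACADL, an acyl-CoA dehydrogenase, at -0.22, -0.13, -0.56 and -0.19 (fit -0.28, SE 0.101). BDH1A, of ketone body metabolism, stood at 0.15, 0.083, 0.18 and 0.28 and PPARGC1B, a coactivator of mitochondrial genes, at 0.040, 0.45, -0.096 and 0.29. None of these oxidation genes was called, with adjusted p from 0.742 to 0.746. In the dye-turned reading PPARGC1A was the 1 of 26 oxidation genes called higher, and 0 were called lower. ATP5PB was the 1 of 42 respiration genes called higher and NDUFA11 the 1 called lower. These counts are near the shares of all features called higher (3.15%) and lower (3.13%).

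Of 17 sterol synthesis genes 6 were above 0 (median -0.058) with 0 at an unadjusted p under 0.05 in either direction. HSD17B7 and INSIG2, which takes part in sterol sensing, were called lower in the dye-turned reading (-0.32 and -0.52). They were the 2 of 17 called lower, and 0 were called higher, beside 3.13% and 3.15% of all features. In glycolysis, the citrate cycle and glycogen metabolism 18 of 36 were above 0. HK2, a hexokinase, stood at -0.53, -0.20, -0.75 and 0.27 and PYGB, a glycogen phosphorylase, at 0.34, -0.0031, 0.24 and 0.033. ENO1, enolase, stood at 1.00, -0.68, 0.72 and -0.78, and its dye-turned ratio was -0.82 (SE 0.107, adjusted p 0.000413). ENO1 and IDH3A were the 2 of 36 called lower in that reading, and 0 were called higher, beside 3.13% and 3.15% of all features. The insulin and IGF list had 9 of 14 above 0, 0 at an unadjusted p under 0.05, and IGFBP2, a binding protein of insulin-like growth factors, at 0.55, -1.37, 1.21 and -0.49. The dye-turned ratio of that gene was -0.93 (SE 0.142, adjusted p 0.00131). With PTPN1, 2 of 14 were called lower in that reading and 0 higher, beside 3.13% and 3.15% of all features. In the list of steroid, retinoid and aldehyde oxidoreductases, ALDH1A3, which makes retinoic acid, stood at 0.14, 0.28, 0.20 and 0.34 (fit 0.25, SE 0.0851, adjusted p 0.703). With the median of the surrounding spots removed its fit was 0.090 (unadjusted p 0.307). RETSAT, which saturates retinol, stood at 0.77, -1.51, 1.87 and -0.18, and BCO2, a carotenoid-cleaving oxygenase, at 0.89, -0.30, 0.76 and -0.088. Both were called lower once turned, at -1.14 (adjusted p 0.0231) and -0.59 (adjusted p 0.0329), and BCO2 was fitted at 0.35 (SE 0.162) as deposited. With AKR1B10, 3 of 26 measured genes of this list were called lower once turned and 0 higher, beside 3.13% and 3.15% of all features.

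**Figure D5:**
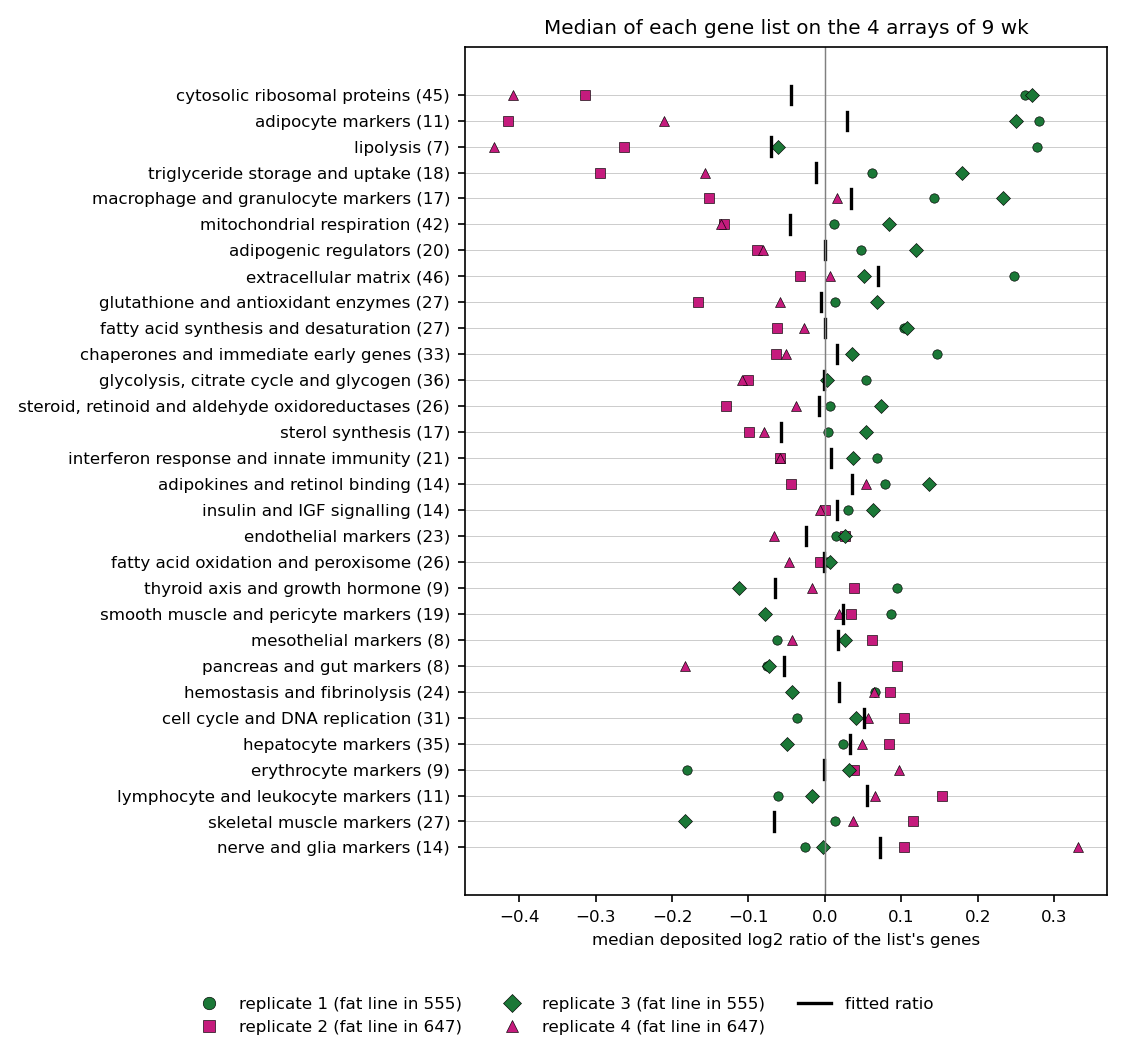
Median deposited log2 ratio of each gene list on the 4 arrays of 9 wk (measured genes in brackets), with 1 point per array (green, fat line in 555; magenta, fat line in 647) and a black bar for the median of fitted ratios, ordered by the difference between dye orientations. Ribosomal proteins and adipocyte markers, at the top, split widest, with green points at 0.25 to 0.28 and magenta points at -0.41 to -0.21.

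Markers of other cell types were examined on the same arrays. Hepatocyte markers had medians of 0.024, 0.084, -0.050 and 0.049 on the 4 arrays, and ALB, serum albumin, stood at 0.058, 0.13, -0.062 and 0.040. No array stood apart in them, whereas at other ages a single array reached 0.83. Skeletal muscle markers had a fitted median of -0.066 (10 of 27 above 0), which was 0.034 without replicate 3. Their medians on the 4 arrays were 0.013, 0.12, -0.18 and 0.037, with NEB, of the thin filament, at 0.12, -0.47, -0.68 and -0.55 and CKMT2, a mitochondrial creatine kinase, at 0.19, 0.64, -0.27 and 0.37. The muscle median was below 0 on replicate 3 alone. Of 14 nerve and glia markers 10 were above 0 (fitted median 0.072, and 0.005 without replicate 4), with medians of -0.026, 0.10, -0.0026 and 0.33 on the 4 arrays. SOX10, of the glial lineage, stood at 0.37, -0.019, 0.088 and 0.49, and S100B, a glial calcium-binding protein, at -0.63, 0.18, -0.71 and -0.091. Lymphocyte and leukocyte markers were above 0 in 8 of 11 (fitted median 0.055, and -0.016 without replicate 2 and -0.0052 without replicate 4), with 2 above and 2 below 0 on all 4 arrays. ARHGDIB, a regulator of small GTPases, stood at 0.35, 0.055, 0.40 and 0.066, and IL2RG, the common cytokine receptor chain, at -0.061, -0.32, -0.21 and -0.53. Macrophage and granulocyte markers were above 0 in 11 of 17. CTSB, a lysosomal protease on the latter list, stood at 0.73, -0.53, 0.52 and -0.43 and was called lower once turned (-0.61, adjusted p 0.00747). CASQ2 (muscle), CALD1, PLN (smooth muscle), CDH5 and RAMP2 (endothelium) were called lower too (3.13% of all features). Called higher (3.15%) were KNG1 (hepatocyte), MYOM1 (muscle), ITGB2 (leukocyte), SPTB (erythrocyte), NEFL and SNAP25 (nerve). Of 27 muscle markers 15 had both arrays with FL in 647 above both others (27.7% of all features did) and 5 below (26.8%). For 35 hepatocyte markers the counts were 14 and 4, and for 14 nerve and glia markers 7 and 2. No marker was called as deposited, and the part of these cell types in the results was not tested.

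Against the mean of the other 5 ages 0 features (0%) passed as deposited, with a smallest adjusted p of 0.988, and 670 (4.46%) had an unadjusted p under 0.05, 454 higher (3.02%) and 216 lower (1.44%). Of the genes named, the smallest p belonged to MKLN1, with a difference of -0.38 (SE 0.084, p 0.000201), followed by NOS1AP at -0.37 (SE 0.0952). UQCRQ differed by -0.44 (SE 0.13), with a mean of 0.065 at the other ages. TAF5L, of a histone acetyltransferase complex, stood at 0.080, 0.25, 0.15 and 0.34, and TSG101, of the endosomal sorting machinery, at 0.28, 0.11, 0.31 and 0.19. Both had means below 0 at the other ages (-0.054 and -0.064). The difference was 0.28 to 0.53 for IL11RA, CDC42BPA, CD81 and DYNC1H1, and -0.57 to -0.30 for MTX2, PHLDA2 and ERN2, all with an adjusted p of 0.988. Of the matrix genes 30 of 46 lay above their mean at the other ages, beside 8096 of all 15027 features (53.9%). Among them 1 had an unadjusted p under 0.05, THBS2 at 0.60 (SE 0.266, p 0.0336), beside 4.46% of all features in either direction. POSTN, at 0.18 (SE 0.271), and COL5A1, at 0.24 (SE 0.205), did not pass.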

How the data were processed

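The authors deposited 1 log2 ratio per spot and array for 19200 spots of 24 arrays, with R 2.11.1 and limma 3.4.5 named in the submitters' processing notes. How background was corrected, how arrays were normalized and which way ratios run is not given in the sources used here. The log base is assumed from limma's default. No scanner intensities were used, so the number of arrays limits the precision. At 9 wk array medians ran from 0.00894 to 0.0148, SDs over spots from 0.278 to 0.411, and single values from -4.15 to 3.75.

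Spots were named from the platform annotation after rows and columns of each block had been exchanged. This choice was made after seeing the data, because clones of one gene then correlated better. Of 19200 spots 10601 had 1 symbol and 8599 none, and 10455 named spots (98.6%) matched RefSeq, which changed 0 symbols. The 123 spots of 2 control clones were left out and spots of one symbol averaged, 2770 of 6428 named features having several.

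The model, run in R 4.3.3 with limma 3.58.1 and statmod 1.5.0, covered all 24 arrays with 6 age means, a common dye term, array weights (0.553 to 1.38 at 9 wk) and empirical Bayes. Tests were two-sided, with Benjamini-Hochberg adjustment over 15027 features. It was tested on simulated data, where it made 4 false calls. Alternatives covered weights, dye terms, names, scaling, single spots, omitted arrays and print-position trends.

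Named were 110 genes: the 12 of smallest p and one sign on 4 arrays in each direction, the 6 of smallest p against the other ages in each direction, in each gene list the leading member each way and those with p under 0.05, 3 extremes each way, and 11 measured fixed genes, with every gene of adjusted p under 0.05 (there was none). Genes called in the dye-turned reading were added after their values were seen. The members and gene lists were chosen with earlier results of these data known. Replicate numbers stand for different birds and were not used as pairs.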

Additional observations from a re-analysis of the deposited data

Results flagged for a closer look

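Of 140 genes and list medians examined, 8 had 1 array of 9 wk far from the other 3, by the gap to the nearest array as a share of the range (Dixon's criterion). Chance gives about 1 in 20, so the count is close to that rate. TMEM9, PKN2 and IL2RA were named for extreme means over these same arrays, which favours such a gap. Replicate 1 stood apart in ERN2 (-1.26, others -0.207 to -0.0216), in TMEM9 (-3.44, others -0.204 to 0.0204) and in NFKBIA, the inhibitor of NF-kappa-B (0.288, others -0.834 to -0.706). PKN2 had replicate 2 at 2.38 (others -0.000376 to 0.218). Replicate 4 stood apart in IL2RA (2.74, others -0.0703 to 0.153), in AKT1, a kinase of insulin signalling (0.985, others -0.147 to 0.0256), and in the median of the endothelial markers (-0.0659, others 0.0152 to 0.0269). The median of the hemostasis list was low on replicate 3 (-0.0426, others 0.0637 to 0.0847).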

How the results depend on the processing

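The count of features called at 9 wk moved from 0 to 14 with a dye term for each age, to 944 with the ratios turned by the dyes, and to 1455 with, in addition, the local median of the 7 by 7 surrounding spots removed, an alternative added after seeing the data. Against the other ages the counts were 1, 2 and 10. At an unadjusted p under 0.05, 999 features became 559 with no dye term, 3237 turned, 447 among named features alone and 3838 turned with local medians removed. Against the other ages 670 became 1043 without array weights, 1239 with a dye term per age, 336 without one, 1728 turned, 280 among named features and 2009 turned with local medians removed. Omitting single arrays gave 0 called, 862 to 1355 features at 9 wk, and 572 to 1275 against the other ages, the last without replicate 1. The matrix median of 0.0689 was -0.0933 turned and -0.0715 turned with local medians removed, and 29 of 46 genes were above 0 with spot names as given. The adipocyte median ran from -0.266 to 0.161 when 1 array was omitted. Of the 110 genes named by rule, those called with the opposite sign were ERN2 (0.541), BCO2 (-0.592) and TMEM9 (1.46) in the dye-turned reading, where genes outside that rule such as PNPLA2 and COL6A1 turned too, and with local medians removed as well BCO2 (-0.583), TMEM9 (1.24), THRB (0.339), COL4A5 (0.285) and CA2 (0.317). The cause of these moves was not tested. Of 110 named genes 62 changed sign in the dye-turned reading and 51 with the names as given, which puts other spots under each symbol, while each other setting without turned ratios changed 0 to 3. With the replicate number as a block in place of the dye term, 0 features passed and 1070 had p under 0.05 unadjusted. The numbers stand for different birds, and dye orientation is nested in them, so the block is no pairing. Signal over background is unknown here.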
